A study of Macaca mulatta with 10 samples.

Results

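MALAT1, NEAT1, GAS5, SNHG1, SNHG5 and SNHG8 are long noncoding RNAs that were read by their gene symbols from the deposited count table. They are 6 of its 26484 listed genes. MALAT1 was chosen by its counts, as the first gene of the deepest libraries, so its rank and level are given here as a description. MALAT1 and NEAT1 are RNAs of the nucleus, and the other 4 genes carry small nucleolar RNAs (snoRNAs) in their introns. The name of abundant RNAs held for MALAT1, with 439058 counts over all libraries, and in part for NEAT1 with 6330. It did not hold for the snoRNA host genes, whose totals were 103 counts for GAS5, 251 for SNHG1, 164 for SNHG5 and 218 for SNHG8.

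The RNA came from Tr1 cells, a regulatory CD4 T cell type, sorted as CD4+CD49b+LAG3+ from the blood of rhesus macaques, with 1 library per monkey. All 10 monkeys had been made diabetic with streptozotocin and received a pancreatic islet allograft matched for 1 DRB allele. All were given the same transient immunosuppression of anti-CD40 antibody 2C10R4, rapamycin, soluble TNF receptor and anti-IL-6 receptor antibody. The 5 Cohort C monkeys also received infusions of apoptotic donor leukocytes (ADLs), and the 5 Cohort B monkeys did not. Blood cells were frozen, then thawed and rested overnight before the sort. The labels place the sampling at sacrifice, on day 365 for Cohort C and at rejection for Cohort B. The study's text keeps monkey 15CP1 alive past that end and describes some Cohort B monkeys that did not reject. Ages of single monkeys are not in the labels. The question asked of these libraries was how the Tr1 transcriptome differs with and without ADLs. By the labels, ADL infusion, graft outcome and sampling time differ together between the cohorts. Their parts in a cohort difference cannot be told apart.

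MALAT1 is known as a very abundant RNA of nuclear speckles, the bodies that hold splicing factors, and it stays in the nucleus. NEAT1 is the scaffold of a second nuclear body, the paraspeckle, which holds RNA-binding proteins such as SFPQ and NONO. In the host genes, the introns yield snoRNAs that guide chemical modification of ribosomal RNA, while the spliced exons leave the nucleus. The exons of several hosts, GAS5 and SNHG1 among them, are known to be turned over by nonsense-mediated decay, and GAS5 RNA is known to accumulate in growth-arrested lymphocytes.

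The libraries differed widely before any of these genes was considered. Total counts ran from 6076 in monkey 14HP31 to 1392157 in monkey 13EP8 in Cohort B, and from 66485 in monkey 15CP4 to 5895609 in monkey 15CP1 in Cohort C. Between 465 and 15068 genes had a count. Genes of the MTRNR2L family, near-identical copies related to mitochondrial ribosomal RNA, took 3.09 to 28.8% of the counts in Cohort B and 3.29 to 87.0% in Cohort C, the latter in monkey 14HP33. The T cell markers, including the sorted genes ITGA2 (CD49b) and LAG3, were all detected in monkeys 13EP12, 13EP5 and 15CP1, and none of the 10 was detected in monkey 14HP31. ITGA2 had 68 counts in 4 libraries and LAG3 had 38 in 3, so both were at 0 in 6 of the 10. Only 5 libraries, those of Cohort B monkeys 13EP12, 13EP8 and 15CP6 and Cohort C monkeys 13EP5 and 15CP1, held at least 4000 genes.

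MALAT1 was counted in all 10 libraries. In Cohort B its counts were 47351 in monkey 13EP12, 51471 in 13EP8, 769 in 14HP26, 96 in 14HP31 and 12254 in 15CP6. In Cohort C they were 94749 in monkey 13EP5, 644 in 14HP33, 3290 in 14HP24, 226197 in 15CP1 and 2237 in 15CP4. MALAT1 was the first gene of the library in 13EP12, 13EP8, 13EP5 and 15CP1, which are the 4 deepest. Elsewhere it ranked from 3rd in 15CP6 to 12th in 14HP33. In 5 of those 6 libraries MTRNR2L1 came first, and in 14HP31 it was RAPH1, with 879 counts.

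As a share of all counts, MALAT1 took 3.98% in 13EP12 (95% Wilson interval 3.94 to 4.01%), 3.70% in 13EP8, 0.675% in 14HP26, 1.58% in 14HP31 (1.30 to 1.93%) and 2.69% in 15CP6. In Cohort C it took 2.84% in 13EP5, 0.0665% in 14HP33 (0.0616 to 0.0718%), 2.40% in 14HP24, 3.84% in 15CP1 and 3.36% in 15CP4. Such intervals cover counting error only, and the range between monkeys of a cohort was far wider. The cohorts overlapped, with a mean of 2.52% ± 1.398 (SD, n = 5) in Cohort B and 2.50% ± 1.46 (SD, n = 5) in Cohort C. On the log2(CPM + 1) scale, where CPM is a gene's counts relative to the library total, the means differed by -0.57, Cohort C minus Cohort B (exact permutation test, two-sided p = 0.786). Without monkey 14HP33 the difference was 0.53. This test was run once for each of the 6 genes, and the smallest p that 5 against 5 monkeys allows is 0.00794. In sorted cells pooled in bulk, fewer cells that hold an RNA and less of it per cell cannot be told apart.

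**Figure D1:**
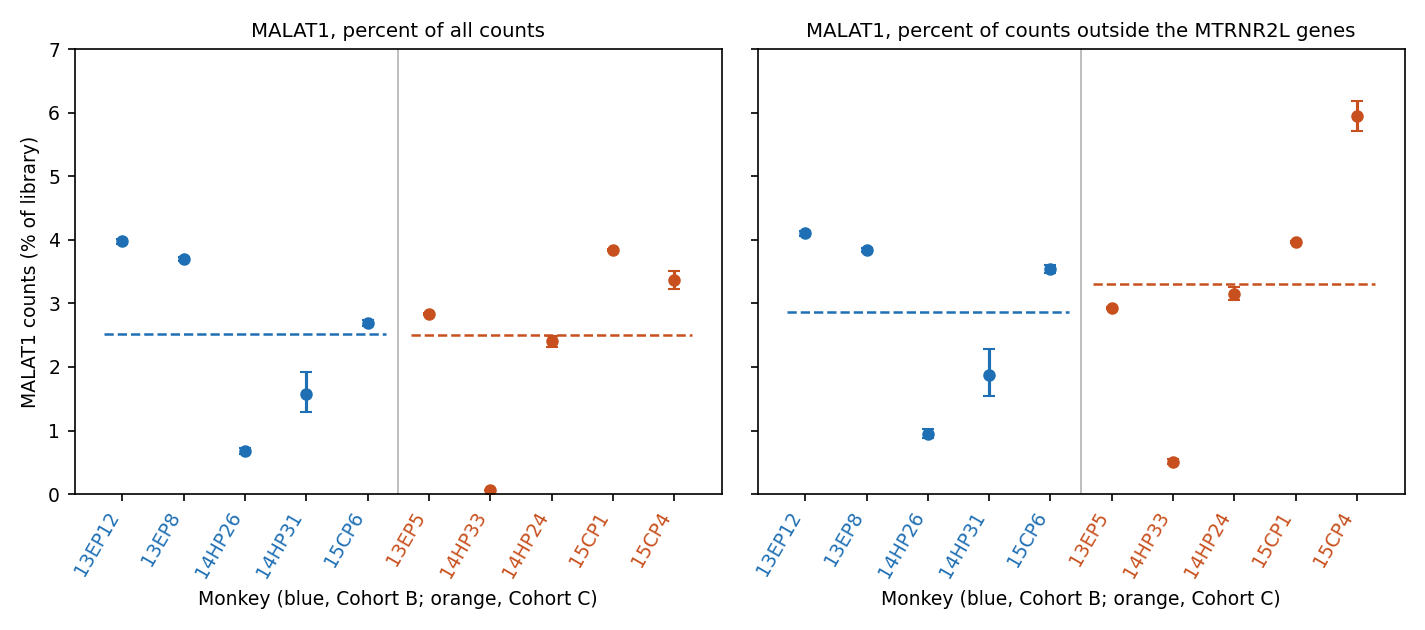
MALAT1 counts as a percent of the library in each monkey, of all counts (left) and of counts outside the MTRNR2L genes (right). Points are libraries with 95% Wilson intervals and dashed lines are cohort means. The point of monkey 14HP33 lies at 0.0665% on the left and at 0.510% on the right.

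The MTRNR2L genes bear on these shares directly, since they are part of the total. With them left out of the total, MALAT1 took 4.10% in 13EP12, 3.85% in 13EP8, 0.948% in 14HP26, 1.87% in 14HP31 and 3.54% in 15CP6. In Cohort C the same share was 2.93% in 13EP5, 0.510% in 14HP33, 3.15% in 14HP24, 3.97% in 15CP1 and 5.95% in 15CP4. The lowest MALAT1 share was still that of 14HP33, and the highest was now that of 15CP4. The cohort means were 2.86% ± 1.38 (SD, n = 5) in Cohort B and 3.30% ± 1.96 (SD, n = 5) in Cohort C. The difference in mean log2 level was then 0.03 (exact permutation test, two-sided p = 0.976).

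NEAT1 was counted in 8 libraries. In Cohort B it had 1150 counts in 13EP12, 743 in 13EP8, 2 in 14HP26, 0 in 14HP31 and 258 in 15CP6. In Cohort C it had 127 counts in 13EP5, 0 in 14HP33, 23 in 14HP24, 3980 in 15CP1 and 47 in 15CP4. Scaled to the library total these were 966, 534, 17.6, 0 and 566 CPM in Cohort B, and 38.0, 0, 168, 675 and 707 CPM in Cohort C, in the same order. The cohorts overlapped over nearly their whole range, and the mean log2(CPM + 1) differed by -0.16 (exact permutation test, two-sided p = 0.937). The difference was -2.56 in libraries with over 100000 counts (exact permutation test, two-sided p = 0.343) and -2.03 in those with at least 4000 genes (p = 0.6). The first includes the 0 of 14HP33, where MTRNR2L genes took 87.0% of the counts. The second restriction was chosen after seeing the data and leaves too few monkeys for this test to reach 0.05. Within it, only 13EP5 lay below the Cohort B libraries, and 15CP1 lay within their range. The floor of 3 counts, the level that 0 counts allow, equals 494 CPM in 14HP31 and 3.10 CPM in 14HP33, or 23.8 CPM in 14HP33 with the MTRNR2L genes left out of the total.

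Monkey 13EP5, with 3341503 counts, had a low NEAT1 count beside a high MALAT1 count. In Cohort B, NEAT1 made up 2.37% of the NEAT1 and MALAT1 counts together in 13EP12 (95% Wilson interval 2.24 to 2.51%), 1.42% in 13EP8 (1.32 to 1.53%), 0.259% in 14HP26 (0.0712 to 0.941%), 0% in 14HP31 (up to 3.85%) and 2.06% in 15CP6 (1.83 to 2.33%). In Cohort C it made up 0.134% in 13EP5 (0.113 to 0.159%), 0% in 14HP33 (up to 0.593%), 0.694% in 14HP24 (0.463 to 1.04%), 1.73% in 15CP1 (1.68 to 1.78%) and 2.06% in 15CP4 (1.55 to 2.73%). This ratio does not depend on the library total. Over the libraries with more than 3 counts of both genes, the log2 ratio of NEAT1 to MALAT1 averaged -5.68 ± 0.39 (SD, n = 3) in Cohort B and -7.03 ± 1.82 (SD, n = 4) in Cohort C. The difference of -1.34 did not pass the exact permutation test (two-sided p = 0.286, with 0.0571 the smallest p that 3 against 4 allows). Without monkey 13EP5 it was -0.50.

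Monocyte markers also varied between the libraries. VCAN, a proteoglycan gene highly expressed by monocytes, had 1104, 1084, 0, 0 and 338 counts in Cohort B and 184, 0, 28, 4416 and 0 in Cohort C, with the monkeys in the order used above. The 10 monocyte markers together took 0.132, 0.116, 0, 0 and 0.0894% of the counts in Cohort B, and 0.0198, 0.00103, 0.0555, 0.117 and 0% in Cohort C. Both NEAT1 and this sum were higher in 13EP12, 13EP8, 15CP6 and 15CP1 than in 13EP5, but 15CP4 had the second highest NEAT1 level of all, 707 CPM, with 0 counts of all 10 monocyte markers. VCAN made up most of the sum, for example 1104 of 1577 counts in 13EP12 and 4416 of 6879 in 15CP1. In 13EP5, 6 of the 10 markers were detected, with 184 counts of VCAN, 134 of CSF1R, 125 of LYZ, 114 of CD68, 67 of CST3 and 36 of CD14. The T cell markers were likewise low in the shallow libraries, at 0.141, 0.110, 0.0378, 0 and 0.0575% of the counts in Cohort B and 0.127, 0.00165, 0.0277, 0.126 and 0.0165% in Cohort C. The part of these markers in the NEAT1 values was not tested.

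**Figure D2:**
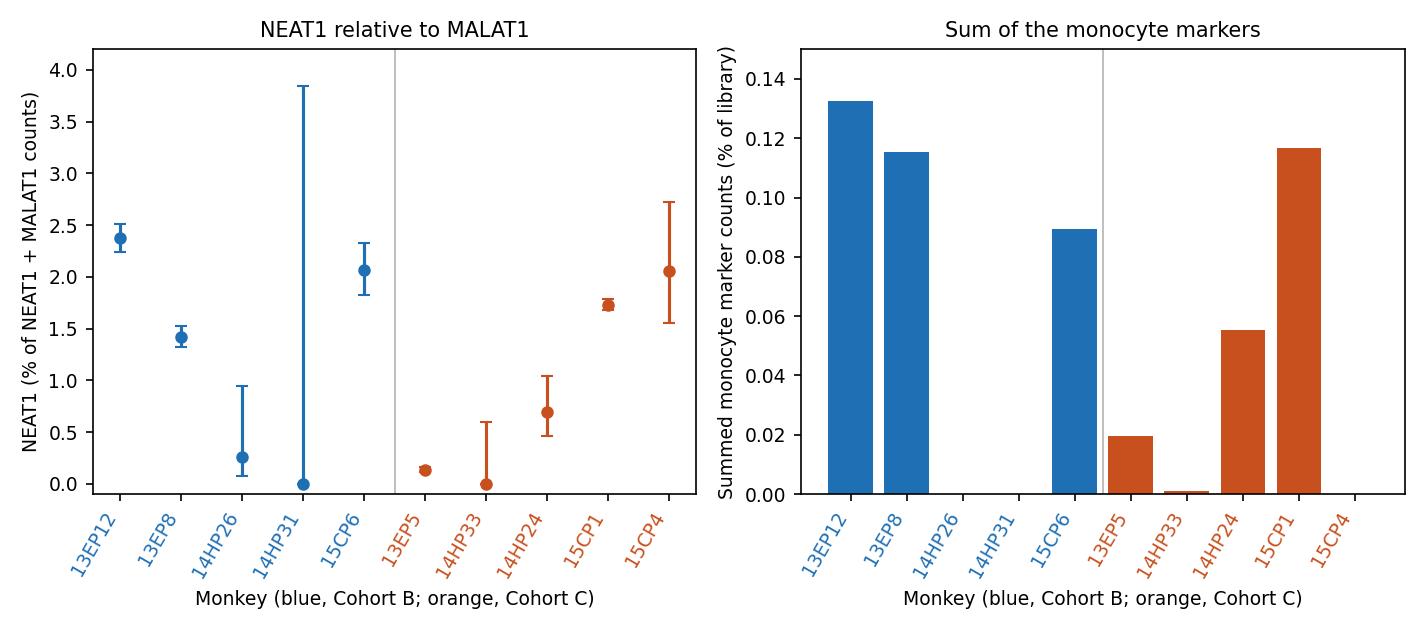
Left, NEAT1 as a percent of the summed NEAT1 and MALAT1 counts per monkey, with 95% Wilson intervals. Right, the counts of 10 monocyte markers summed, as a percent of the library. Monkey 13EP5 lies at 0.134% on the left and 0.0198% on the right.

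The host genes were counted in few libraries, and their values rest on at most 107 counts in a library. GAS5 had 54 counts in Cohort B monkey 13EP8, and 9 in 13EP5 and 40 in 15CP1 of Cohort C, with 0 in the other 7 libraries. SNHG5, known as the host of SNORD50A and SNORD50B, had 35 counts in 13EP8, 64 in 13EP5 and 65 in 15CP1, and also 0 in the rest. GAS5 and SNHG5 were thus seen in the same 3 libraries.

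Both other hosts were seen in the 5 libraries with at least 4000 genes and in no other. SNHG1, the host of SNORD22 and of SNORD25 to SNORD31, had 11, 15 and 107 counts in 13EP12, 13EP8 and 15CP6 of Cohort B, and 34 and 84 in 13EP5 and 15CP1 of Cohort C. SNHG8, which carries SNORA24, had 57, 67 and 28 counts in the same Cohort B libraries, but 2 and 64 in those of Cohort C. Monkey 15CP6 alone held 107 of the 251 SNHG1 counts. For SNHG8, the count of 15CP1 lay within the range of the Cohort B libraries and that of 13EP5 below it.

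**Figure D3:**
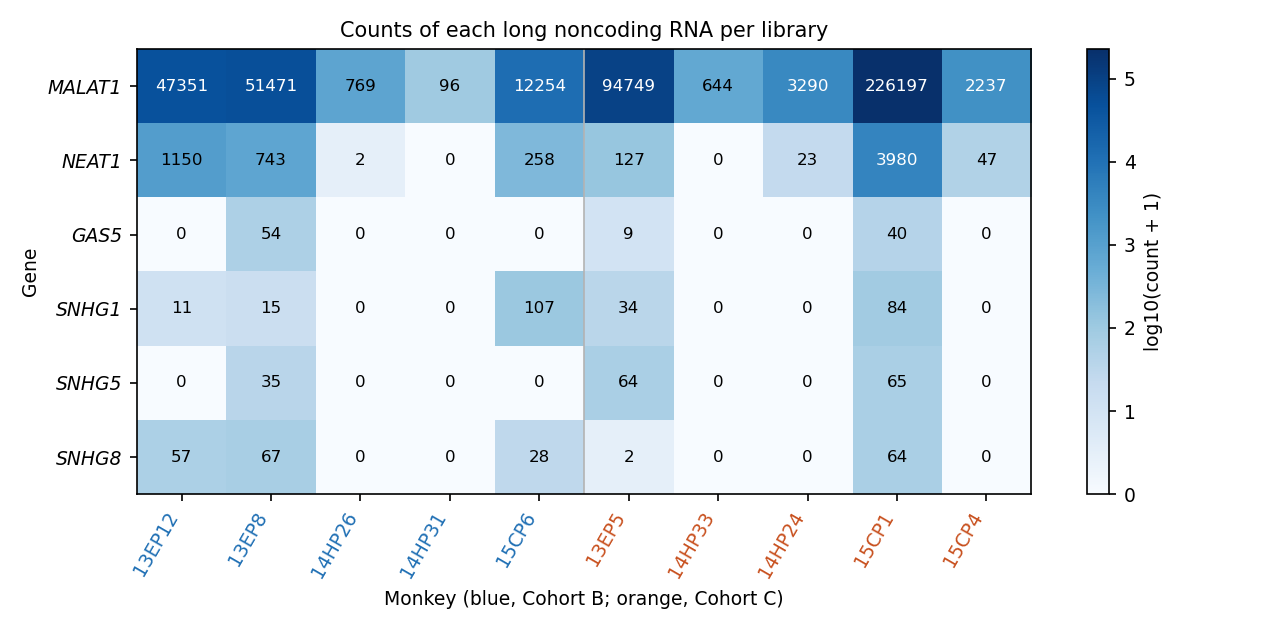
Counts of the 6 genes (rows) in the 10 libraries (columns), with colour for log10(count + 1). MALAT1 fills its whole row, NEAT1 is at 0 in 2 libraries, and the host genes are at 0 in 5 or 7 of the 10.

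Scaled to the library total, SNHG8 was at 47.9 CPM in 13EP12, 48.1 in 13EP8 and 61.5 in 15CP6 of Cohort B. In Cohort C it was at 10.9 CPM in 15CP1 and 0.599 CPM, from 2 counts, in 13EP5. On this scale both Cohort C libraries lay below the 3 of Cohort B. Only libraries that counted SNHG8 enter here, and the share of all genes with the same order is not given, so the order is a description. SNHG1 was at 9.24, 10.8 and 235 CPM in those Cohort B libraries and at 10.2 and 14.2 CPM in 13EP5 and 15CP1. GAS5 was at 38.8 CPM in 13EP8, 2.69 in 13EP5 and 6.78 in 15CP1. SNHG5 was more even where it was seen, at 25.1 CPM in 13EP8, 19.2 in 13EP5 and 11.03 in 15CP1. With all 5 monkeys of each cohort, the mean log2(CPM + 1) differed by -2.59 for SNHG8 (exact permutation test, two-sided p = 0.167), by -1.48 for SNHG1 (p = 0.564), by -0.09 for GAS5 (p = 1.0) and by 0.64 for SNHG5 (p = 1.0), Cohort C minus Cohort B.

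Many of the zeros say little. Had each gene stood at its median share, outside the MTRNR2L genes, over the libraries that counted it, more than 3 counts would be reached in 1 of the 7 libraries without GAS5, in 0 of 5 without SNHG1, in 2 of 7 without SNHG5 and in 3 of 5 without SNHG8. At this depth, absence of the host genes from the shallow libraries was therefore mostly not measurable. NEAT1 differed in this, since more than 3 counts were due by the same reckoning in both of the libraries where it was at 0. For 14HP31 the margin was narrow, at 3.21 counts, and for 14HP33 it was wide, at 79.1. The reckoning takes only depth into account, however. In 14HP33, with 1659 genes detected, EEF1A1 (73165 counts over all libraries) and HNRNPK (13513) were also at 0, while TPT1 (65502) had 215. The 0 of NEAT1 in 14HP33 therefore does not show that the RNA was absent.

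In the fit over all genes, edgeR's quasi-likelihood test over 14168 genes, 0 of the 6 genes passed the study's filter of an unadjusted p under 0.01 with a 1.5-fold change. Of all genes tested, 911 or 6.43% passed it, 5.36% lower and 1.07% higher in Cohort C. At an adjusted p under 0.05, 0 genes passed by edgeR, while 2923 had an unadjusted p under 0.05. DESeq2 gave 2 genes at an adjusted p under 0.05, neither of them among these 6. The log2 fold changes, Cohort C minus Cohort B, were 0.03 for MALAT1 (SE 1.42, adjusted p = 0.9998) and -0.74 for NEAT1 (SE 1.88, adjusted p = 0.9998). The host genes gave -1.70 for GAS5 (SE 1.98, adjusted p = 0.913), -3.03 for SNHG1 (SE 2.21, adjusted p = 0.570), 0.25 for SNHG5 (SE 1.96, adjusted p = 0.9998) and -3.28 for SNHG8 (SE 2.25, adjusted p = 0.508). The median of the 6 was -1.22, beside 0.16 for all genes tested. The standard errors, of 1.42 to 2.25, are wide enough that these values do not show equal levels in the cohorts.

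**Figure D4:**
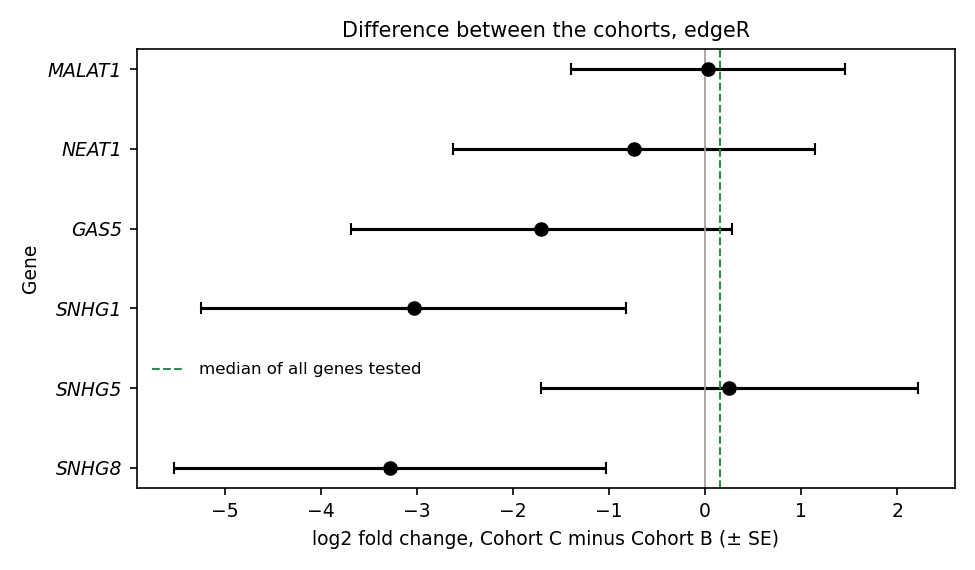
Log2 fold change of the 6 genes between the cohorts (points) with its standard error (bars), from edgeR's fit over all genes. The dashed line is the median of all genes tested, 0.16. The 2 lowest points, SNHG1 and SNHG8, lie more than 1 standard error below 0.

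Single libraries set the host gene values. Without monkey 13EP8, the only Cohort B library with counts of GAS5 and SNHG5, the fold changes became 4.80 for GAS5 (edgeR, unadjusted p = 0.0341, adjusted p = 0.187) and 6.14 for SNHG5 (edgeR, unadjusted p = 0.0304, adjusted p = 0.187). Cohort B was then at 0, so these sizes depend on the prior count of the fit. Without monkey 15CP6 the fold change of SNHG1 was -0.09, and without monkey 15CP1 that of SNHG8 was -6.15. Within the 5 libraries of at least 4000 genes, a restriction chosen after seeing the data, SNHG8 gave -3.17 (SE 2.26, adjusted p = 0.833) and NEAT1 gave -0.94 (SE 0.87, adjusted p = 0.927). The direction of MALAT1 was not stable, at -0.01 with library size alone in place of TMM and -0.11 with edgeR's filterByExpr rule.

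Per length, on the FPKM scale that Cuffdiff gives, MALAT1 stood above NEAT1 in the 7 libraries with an FPKM of both. MALAT1 was at 3589, 3705, 376, 618 and 954 FPKM in Cohort B and at 19067, 18.3, 560, 3923 and 3135 FPKM in Cohort C. NEAT1 was at 77.8, 20.4, 0.510, 0 and 52.8 FPKM in Cohort B and at 36.7, 0, 1.26, 33.9 and 0 FPKM in Cohort C. The last 0, in 15CP4, is listed although NEAT1 had 47 counts there. The MALAT1 level was between 18.1 and 738 times that of NEAT1 in those 7. The 2 scales disagreed on NEAT1 in 13EP5, whose 36.7 FPKM was the highest of Cohort C. MALAT1 was also highest there by FPKM, at 19067, although its count share of 2.84% was below the 3.84% of 15CP1. Relative to 1000 of MALAT1, NEAT1 in 13EP5 was 1.34 by counts and 1.93 by FPKM. In 15CP1 these were 17.6 and 8.63, and in 14HP24 they were 6.99 and 2.25. GAS5 and SNHG1 had an FPKM only in monkey 13EP5, at 40.3 and 6.75, below MALAT1 there. Larger counts of GAS5, 54 in 13EP8 and 40 in 15CP1, and of SNHG1, 107 in 15CP6 and 84 in 15CP1, are listed at 0 FPKM. SNHG5 and SNHG8 were listed at 0 FPKM in every library although counts were deposited for them, as were between 20.3 and 61.3% of the counted genes of a library. Limma on log2(FPKM + 1) over 10307 genes gave differences of -0.04 for MALAT1 (SE 1.64, adjusted p = 0.999), -1.10 for NEAT1 (SE 1.61, adjusted p = 0.992) and 1.07 for GAS5 (SE 1.26, adjusted p = 0.992), while the other 3 genes missed its filter. The GAS5 and NEAT1 differences include such zeros, and that of GAS5 is opposite in sign to the count fit. It called 0 genes at an adjusted p under 0.05, with 29 at an unadjusted p under 0.05.

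Over all libraries, the snoRNAs of each host had more counts than the host, by the least for SNHG5. GAS5 had 103 counts and the 10 snoRNAs listed for it had 3374, and SNHG1 had 251 against 15252 for its 8. For SNHG5 the totals were 164 and 285, and for SNHG8 they were 218 and 1460 from SNORA24 alone. In the 3 libraries with SNHG5 counts, host and snoRNA counts were 35 and 37 in 13EP8, 64 and 58 in 13EP5 and 65 and 43 in 15CP1. Counts of GAS5 snoRNAs, led by SNORD76 in 9 libraries, were found in all 10 libraries, including the 7 without a count of GAS5. In 14HP31 and 15CP4 their sum was only 1 count each, under the floor of 3 counts. SNHG1 snoRNAs, led by SNORD22 and SNORD26, were also found in all 10, including 5 without a count of SNHG1. No library had counts of a host without counts of its snoRNAs. Reads of an unspliced host that lie over a snoRNA cannot be told apart from the snoRNA in such counts, and snoRNA and host counts are not compared per length here.

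**Figure D5:**
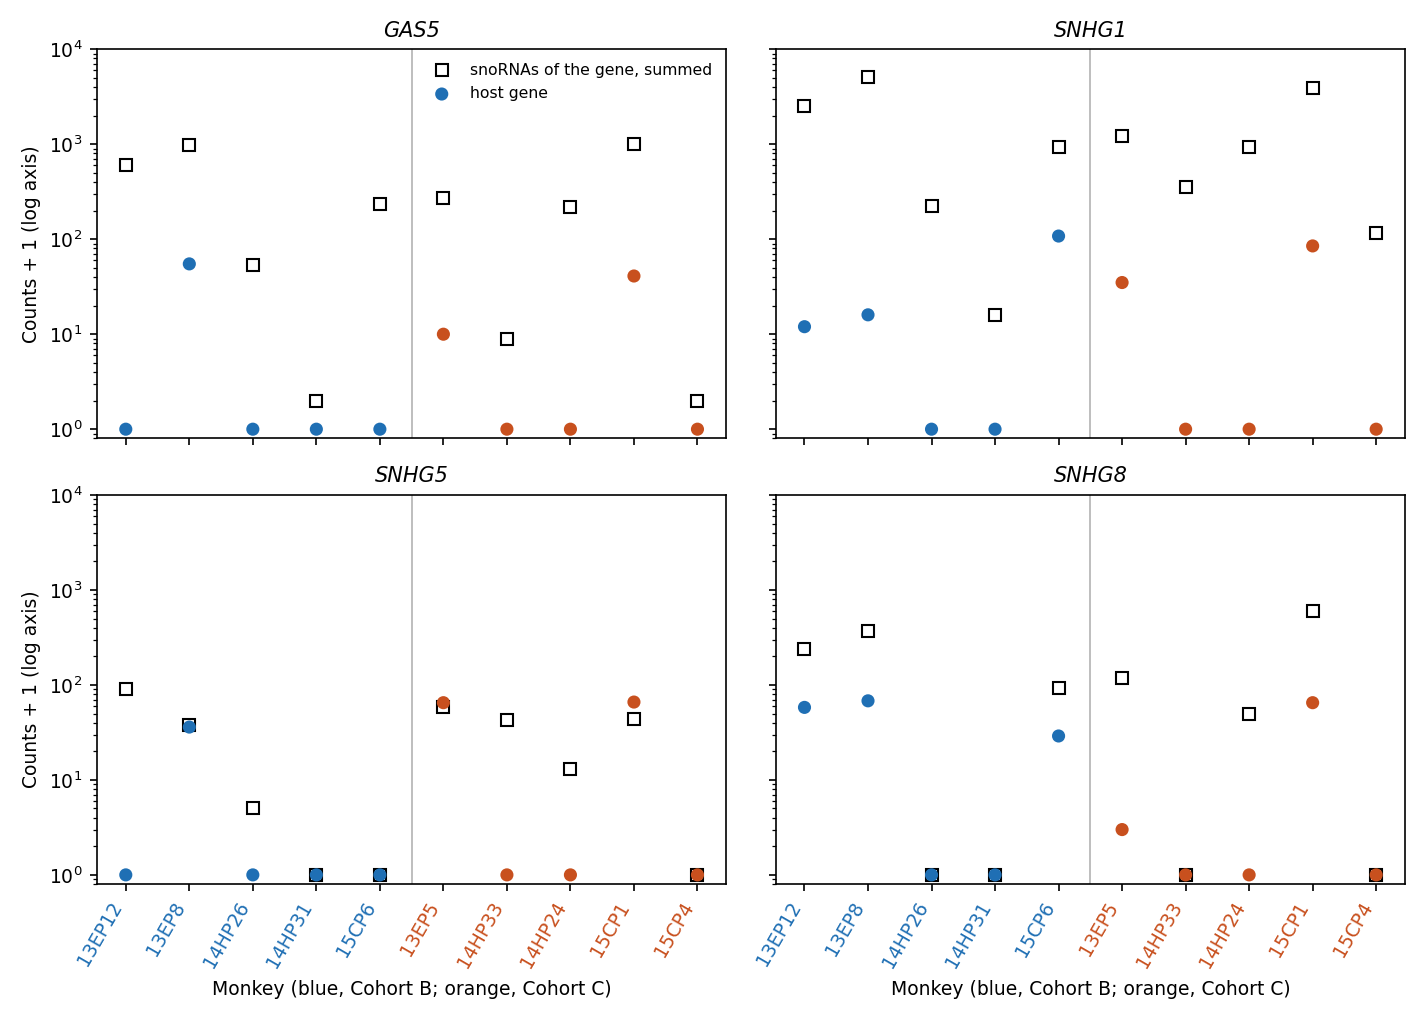
Counts plus 1, on a log axis, of each host gene (filled points) and of its snoRNAs summed (open squares) in the 10 libraries. For GAS5 and SNHG1 the squares stay above the points in every library, while for SNHG5 in 13EP5 and 15CP1 the host is the higher.

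Together the 21 snoRNAs took 0.288, 0.466, 0.246, 0.263 and 0.276% of the counts in the Cohort B libraries. In Cohort C they took 0.0496, 0.0420, 0.876, 0.0937 and 0.176%. With the MTRNR2L genes left out of the total, the snoRNA shares were 0.297, 0.485, 0.345, 0.312 and 0.363% in Cohort B and 0.0513, 0.323, 1.15, 0.0968 and 0.311% in Cohort C. On that total the snoRNA shares of 14HP33 and 15CP4 lay within the Cohort B range, those of 13EP5 and 15CP1 below it and that of 14HP24 above it, so the cohorts overlapped. In edgeR's fit, 19 of these snoRNAs were tested, 9 higher and 10 lower in Cohort C with a median log2 fold change of -0.04. The filter was passed by 0 of them, beside 6.43% of all genes tested. SNORD22 gave 0.58 (SE 1.77, adjusted p = 0.9998) and SNORD26 gave -0.04 (SE 1.82, adjusted p = 0.9998).

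The host genes were compared with the nuclear RNAs within a library where both sums passed 3 counts. Host counts per 1000 counts of MALAT1 and NEAT1 were 1.402 in 13EP12, 3.27 in 13EP8 and 10.8 in 15CP6 of Cohort B, and 1.15 in 13EP5 and 1.10 in 15CP1 of Cohort C. Both Cohort C libraries were the lowest, with 13EP12 of Cohort B next at 1.402. How often other genes give the same order is not reported, so the order is a description. With 2 libraries in Cohort C, the ratio of host genes to nuclear RNAs was not tested.

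GAS5-AS1, the antisense neighbour of GAS5, had 16 counts in 13EP8 and 12 in 15CP1, libraries in which GAS5 itself was counted. The sources used here do not say whether the counting used strand, so GAS5 counts may include antisense reads. The reads were also mapped to the human genome, and how many macaque reads of each RNA were lost in that step was not measured.

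Other long noncoding RNAs were given by lists. Of 10 other snoRNA host genes tested, 5 were higher and 5 lower in Cohort C, with a median log2 fold change of 0.02, and 0 passed the filter. The share that passed over all genes tested was 6.43%. The most counted were ZFAS1, at -1.90 (SE 2.12, adjusted p = 0.895), and EPB41L4A-AS1, at -1.02 (SE 2.04, adjusted p = 0.9998). The smallest p in each direction belonged to DANCR, at 4.92 (SE 2.03, adjusted p = 0.141), and SNHG11, at -5.66 (SE 2.55, adjusted p = 0.176), each counted in 2 libraries. Of 21 other long noncoding RNAs tested, 10 were higher and 11 lower, with a median of -0.05, and 0 passed. RN7SK, the RNA that holds the elongation factor P-TEFb inactive, gave -0.22 (SE 1.49, adjusted p = 0.9998). Of 2 RNAs of the signal recognition particle, RN7SL1 gave -0.05 (SE 1.52, edgeR adjusted p = 0.9998) and RN7SL2 gave 3.83 (SE 1.49, adjusted p = 0.141). RN7SL2 had 29668 of its 130791 counts in 14HP33, the library with 87.0% MTRNR2L counts and a TMM factor of 0.073.

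Genes of the bodies and pathways that these RNAs belong to also gave no call. Of all genes tested 6.43% passed the filter, so 0 calls in a list of 11 to 18 genes say little. Among 15 paraspeckle protein genes tested, 12 were higher and 3 lower, with a median log2 fold change of 0.66, including SFPQ at 0.45 (SE 1.81) and HNRNPK at -0.25 (SE 1.84). Among 14 nuclear speckle genes, 8 were higher and 6 lower, with a median of 0.24, including SON at 0.51 (SE 1.82) and SRRM2 at 0.71 (SE 1.75). The 15 genes of nonsense-mediated decay split into 8 and 7 with a median of 0.03, including SMG1, a kinase of that pathway, at -0.06 (SE 1.86). The 11 snoRNP protein genes split into 7 and 4 with a median of 0.42, including NOP56 at 0.66 (SE 2.03) and NOP58 at -0.10 (SE 2.01). The 18 translation genes whose messages start with a TOP tract, as the RNAs of several snoRNA hosts do, split into 13 and 5 with a median of 0.23, including EEF1A1 at 0.24 (SE 1.68) and TPT1 at 0.37 (SE 1.68). All adjusted p-values of the genes named here were 0.9998 by edgeR's test, and the median over all genes tested was 0.16.

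Among the markers of cell types, 1 gene passed the filter, beside 6.43% of all genes tested. The 10 T cell markers had a median log2 fold change of -0.03, the 10 monocyte markers -0.25, the 8 B cell markers -0.03 and the 7 CD8 and NK cell markers tested -2.06. Of 2 erythroid markers tested, HBD passed the filter at -8.22 (SE 2.86, adjusted p = 0.141), with all 70 counts in 1 library, that of Cohort B monkey 15CP6. The other, HBB, gave 1.64 (SE 1.99, edgeR adjusted p = 0.927), with 186 counts in 15CP6 and 93 in Cohort C monkey 14HP33. The 5 platelet markers tested were all higher in Cohort C, with a median of 3.77, which rests largely on 13EP5. The platelet list had 900 counts in 13EP5, 24 in 15CP1 and 0 in the rest of Cohort C. In Cohort B it had 26 in 13EP12, 8 in 13EP8 and 0 in the rest. The housekeeping genes, 8 in number, had a median of 0.46. The part of these cells in the values of the 6 RNAs was not tested.

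The genes most like each RNA over the 10 libraries were listed by Pearson's r of log2(TMM-scaled CPM + 1), among 4974 or 4975 genes with at least 100 counts and a count in at least 5 libraries. The libraries share their depth differences across all genes, so these values are a description. MALAT1 was nearest to STK17B (r = 0.97), PPP1R12A (0.97) and LRRFIP1 (0.96). NEAT1 was nearest to SRGN, a proteoglycan gene of blood cells (r = 0.96), CDC73 (0.94) and ZCCHC6 (0.94). For the hosts the nearest genes were MTBP for GAS5 (r = 0.91), CYB5R1 for SNHG1 (0.99), HSPA4 for SNHG5 (0.96) and TEX30 for SNHG8 (0.98). Among the 6 RNAs, r was 0.92 between GAS5 and SNHG5, 0.84 between SNHG1 and SNHG8 and 0.84 between MALAT1 and NEAT1.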

How the data were processed

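Libraries were assigned to cohorts from the sample labels. Reads of macaque RNA were aligned by the authors with HISAT2 2.0.2 to human hg38, and raw counts from a subread counter were deposited. Whether strand was used, and how duplicates and multiply matched reads were treated, is not given in the sources used here. A second deposited table holds FPKM from Cuffdiff 2.2.1. Total counts per library ranged from 6076 to 5895609.

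The 6 genes and the gene lists were chosen with earlier results of these data known. Counts were compared by edgeR's quasi-likelihood test (4.0.16, R 4.3.3) after TMM scaling, in 14168 genes whose counts summed to 10 or more. Standard errors were derived from the fold change and its F statistic. FPKM values were compared by limma 3.58.1 on log2(FPKM + 1), where a gene's mean FPKM was 1 or more. Single genes were tested by exact permutation over 252 assignments of log2(CPM + 1), with scipy 1.17.1 (Python 3.11.15), and ratios over 35 assignments. The floor of a library was set at 3 counts. The edgeR quasi-likelihood fit and the limma fit were tested on simulated data, and DESeq2, limma-voom and edgeR's exact test were not. The pass mark of the edgeR test was set at a dispersion far below the 4.74 of these data. It therefore does not show what the fit can recover here. Genes named beyond the 6 were, from each list, the 2 with the most counts and the one with the smallest p in each direction. The first gene of each library and the 3 nearest by correlation were also eligible. SNORD76, SNORA24, CD14, CSF1R, CD68, CST3, LAG3 and GAS5-AS1 were named after their values were seen. Alternatives covered library size scaling, DESeq2 1.42.0, edgeR's exact test, limma-voom, other filters, the MTRNR2L genes left out, an index suffix in the labels as a covariate, a replicate block, deeper libraries only, other pseudocounts and each library left out. The restriction to libraries with at least 4000 genes was added after seeing the data. Replicate numbers name different monkeys in each cohort. Each cohort member is a separate monkey, so the spread is between animals.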

Additional observations from a re-analysis of the deposited data

Results flagged for a closer look

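Within each cohort, the highest or lowest library was compared with its nearest neighbour by Dixon's ratio for 13 groups of values, and 4 stood apart. A chance rate of about 1 in 20 holds for normally spread values, which groups with many zeros are not. With 4 libraries at 0, any count in the remaining library stands apart. The 4 are therefore not set against that rate. MALAT1 in Cohort C monkey 14HP33 was at 9.38 on the log2(CPM + 1) scale, with the other 4 between 14.55 and 15.23. That library gave 87.0% of its counts to MTRNR2L genes. In Cohort B, GAS5 was at 5.31 and SNHG5 at 4.71 in monkey 13EP8, with all of the other 4 libraries at 0. In Cohort C, SNHG8 was at 3.57 in monkey 15CP1, with the other 4 between 0 and 0.68. In the last 3 cases most of the other values are zeros of libraries with fewer counts, apart from SNHG8 in monkey 13EP5 with 2 counts and GAS5 and SNHG5 in monkey 13EP12 with 0 of 1191070.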

How the results depend on the processing

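None of the 16 values of the 6 genes passed a threshold in any of 271 alternatives, and 37 of these changed direction. The threshold was an adjusted p under 0.05 for the fits and an unadjusted p under 0.05 for the permutation tests. Some permutation tests could not pass whatever the values, as the ratio in 3 against 4 monkeys, with a smallest p of 0.0571. The same holds for shares with at least 4000 genes or with the replicate block, so for these the count says nothing. MALAT1 turned to -0.013 with library size alone, -0.11 with filterByExpr, -0.052 with the index suffix as a covariate, -0.10 in libraries with over 100000 counts and -0.076 in those with at least 4000 genes. Its share difference turned to 0.033 without MTRNR2L genes in the total and 0.43 with TMM scaling. GAS5 turned to 0.28 by limma-voom, and its share difference to 0.46 with a pseudocount of 0.1 CPM and 0.65 with at least 4000 genes. DESeq2 gave no p for GAS5 and SNHG1, filterByExpr dropped the host genes, and their FPKM ratio to the nuclear RNAs could not be computed.

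With each library left out, the edgeR log2 fold change ran from -0.37 to 0.32 for MALAT1, from -1.89 to -0.27 for NEAT1, from -2.94 to 4.80 for GAS5, from -3.94 to -0.09 for SNHG1, from -0.79 to 6.14 for SNHG5 and from -6.15 to -3.01 for SNHG8. MALAT1 turned in 5 of these, with a change below 0 without 14HP26, 14HP31, 15CP6, 13EP5 or 15CP1, and SNHG5 without 13EP12, 14HP26, 15CP6, 13EP5 or 15CP1. The FPKM difference of MALAT1 ran from -1.04 to 1.45. Share differences ran from -0.98 to 0.53 for MALAT1, from -1.77 to 1.42 for NEAT1, from -0.59 to 0.97 for GAS5 and from -0.045 to 1.58 for SNHG5.

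The count of genes that passed the study's filter, 911 in all with 152 higher in Cohort C, depended on the method. It was 22 with 12 higher by DESeq2, 88 with 6 by the exact test, 67 with 20 by limma-voom, 10 with 3 under filterByExpr, 98 with 50 under the index covariate, 326 with 68 in libraries over 100000 counts and 111 with 24 in those of at least 4000 genes. With library size alone it was 924 with 73 higher, and 1000 with 93 when any count was enough for a gene to enter. With each library left out it ran from 76 to 698, with 12 to 199 higher. Genes at an adjusted p under 0.05, 0 in the fit reported, numbered 2 by DESeq2, 1 over 100000 counts, 5 with at least 4000 genes and 0 to 1 with each library left out.

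The replicate numbers name different monkeys, and the correlation of deviations within a number ran from -0.43 to 0.38, with no library nearest to its own number. With the replicate block 0 genes passed the filter, 0 were higher, and GAS5 turned to 0.75.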
